A study of Papio hamadryas with 17 samples.

Results

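The 7 genes described here were grouped under the recovery of filtered bicarbonate by the kidney tubule. They are SLC9A3 for apical proton exit, the carbonic anhydrase genes CA2, CA3, CA4, CA12 and CA14, and SLC4A4 for basolateral bicarbonate exit. CA3 and CA14 were near 0 in the 14 libraries that were not rich in skeletal muscle genes. The 7 genes were chosen by gene name from the 9818 genes held in both deposited tables. All 7 were found, each with 1 transcript. The tables come from kidney cortex biopsies, taken under ultrasound guidance from baboons kept on a low salt control chow throughout life and given no other treatment. There were 8 females aged 15 to 19 and 9 males aged 6 to 13, with 1 library per animal, and the study asked how gene networks of the cortex differ between the sexes. Ages carry no unit in the labels and were taken as years. Every female was older than every male, and library names form 1 series in females and others in males. Females and males also have separate deposited tables, so age, library series, table and sex cannot be told apart.

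In the proximal tubule most of the filtered bicarbonate is recovered without crossing the apical membrane as such. Protons leave the cell in exchange for sodium and combine with bicarbonate in the lumen, a membrane-bound carbonic anhydrase turns the product into carbon dioxide and water, and a cytosolic carbonic anhydrase regenerates bicarbonate inside the cell. A sodium bicarbonate cotransporter then carries it across the basolateral membrane. Intercalated cells of the collecting duct secrete further protons with a proton pump and also depend on cytosolic anhydrase.

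Values are called signal: the deposited abundance less its offset of 1, summed per gene. How the libraries were scaled, and whether the tables of females and males were scaled together, is not stated. Differences between the sexes therefore assume a common scaling. Signal was compared between libraries for 1 gene at a time, but not between genes, since transcript lengths were not in the tables. Summed over the shared transcripts, signal came to between 255529 and 311949 in the 6 females that entered the tests and to between 260638 and 433540 in the 8 males. Read depth is unknown, so no counting interval is given.

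Female 1, female 2 and male 6 were set apart because their biopsies were rich in skeletal muscle genes. Summed signal of ACTA1, CKM, DES and CKMT2 lay between 60295 and 120665 there, against no more than 28.4 in the remaining 14. Summed signal of 20 proximal tubule genes was at most 281.4 in the 3 libraries and at least 313.6 in the others. By mean log2(signal + 1) of the same 20 genes the groups overlapped: female 3, which was kept, had 2.73 and male 6 had 2.89. Tests used the 14 libraries, 6 females and 8 males. Results with all 17 libraries are given beside them where they differ. Fold changes are log2 differences, female minus male, on the log2(signal + 1) scale, and a gene was called at a limma adjusted p under 0.05 over all 9414 genes tested.

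**Figure D1:**
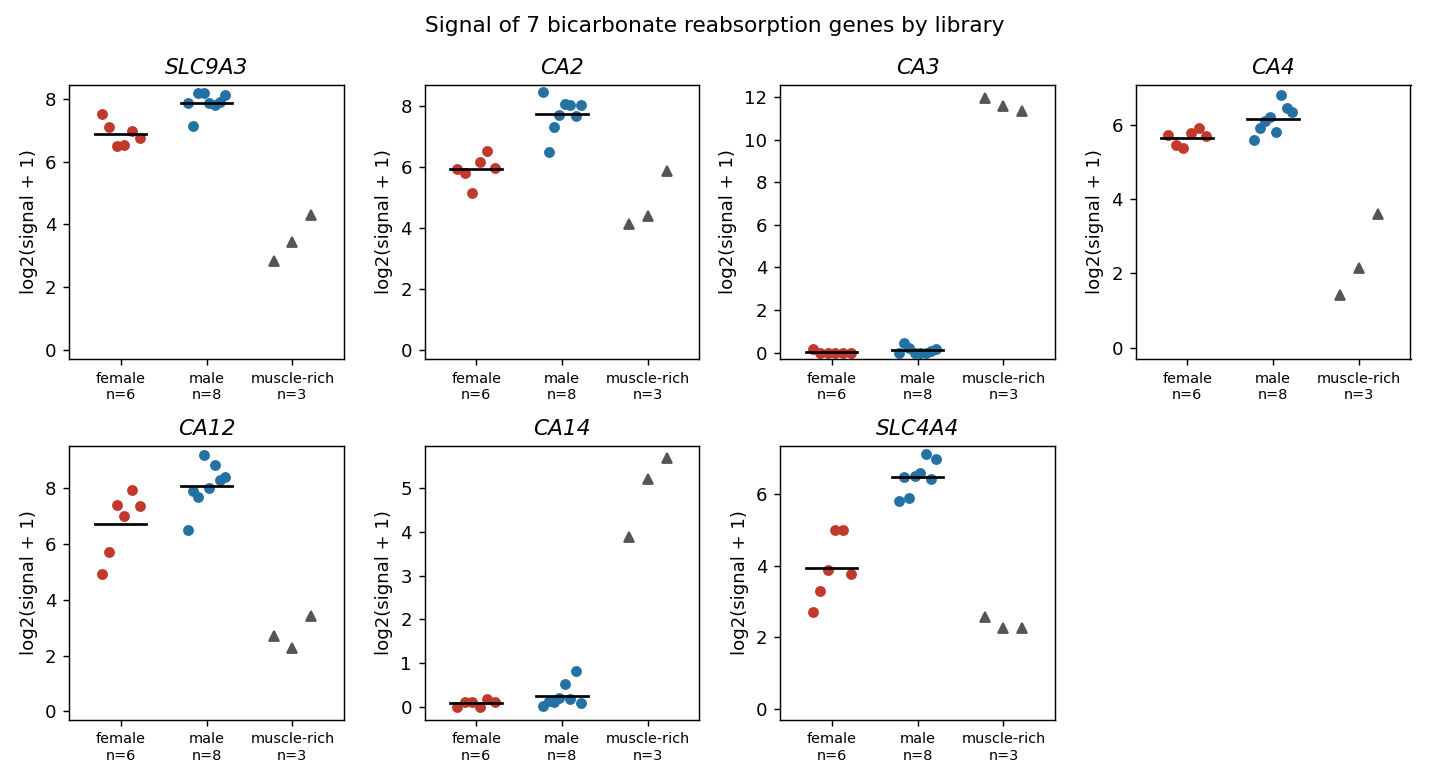
Signal of each gene on the log2(signal + 1) scale, 1 point per library, for 6 females, 8 males and the 3 muscle-rich libraries (triangles). Black lines are group means. SLC4A4 was lower in every female than in every male, and CA3 and CA14 were near 0 in the 14 libraries and high in the 3 muscle-rich ones.

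Of the 7 genes, 5 passed the filter on low signal (1 or more in 8 or more of the 17 libraries), and all 5 were called lower in females in the 14 libraries. CA3 and CA14 did not pass it and were not tested. Over all genes, 38.6% were called, 36.3% lower and 2.23% higher in females, and the median log2 difference was -0.35. The 5 differences ran from -0.50 for CA4 to -2.53 for SLC4A4. With all 17 libraries SLC4A4 and CA2 were called and the other 3 were not, against 13.6% of all genes, 13.2% lower in females. With the libraries scaled to their medians, SLC4A4, CA2 and SLC9A3 were called, against 29.7% of all genes and 15.0% lower in females. The share of called genes that were lower in females moved from 94.2% to 50.4%. Median scaling shifts the median log2 difference of all genes by design, here to 0.03, so a more even split is built into it. With age as a term 0 of the 5 were called, SLC4A4 and CA2 had an unadjusted p under 0.05, and 1 gene of all, 0.0106%, was called. Relative to the mean log2 level of the proximal tubule list, the differences of SLC9A3, CA2, CA4 and CA12 turned positive and that of SLC4A4 stayed negative. This setting subtracts the mean difference of the list, -2.20, from that of every gene. It also gives every gene the spread of the list level between libraries, so calls in it are not independent between genes. SLC9A3 and CA4 were then called higher in females, as were 83.4% of all genes, and the median log2 difference of all genes was 1.85. These values rest in part on female 3, which had the lowest level of that list. Without it, a fit added after the values were seen, CA4 and CA12 were called higher and SLC4A4 lower in females, the difference of CA2 was negative, and SLC9A3 was not called, where 79.7% of all genes were called, 79.4% higher and 0.212% lower. With each transcript tested on its own in the 14 libraries the same 5 were called, against 27.3% of 15567 transcripts.

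SLC9A3 (gene10884, sequence NC_018157.2, 254047 to 301503, minus strand) encodes the sodium-proton exchanger NHE3 of the apical membrane of proximal tubule and thick ascending limb. Its signal was 183.5, 136.9, 89.2, 90.4, 123.7 and 107.5 in females 3 to 8. In males 1 to 5 it was 230.6, 139.2, 287.5, 288.6 and 234.1, and in males 7 to 9 it was 222.3, 240.1 and 279.1. All males but male 2 lay above the highest female, female 3, and male 2 lay inside the female range. The means were 122 ± 35.5 (SD, n = 6) for the females and 240 ± 48.9 (SD, n = 8) in males, and SLC9A3 fell by 0.99 on the log2 scale (SE 0.19, limma adjusted p = 0.000964). It remained called when any 1 of the 14 libraries was left out, with differences from -1.11 to -0.91. The difference was -0.53 (limma adjusted p = 0.0153) with median scaling and -1.53 (limma adjusted p = 0.14) with all 17 libraries. Relative to the proximal tubule list its direction turned, with a difference of 1.21 (SE 0.53, limma adjusted p = 0.0292), beside a median of 1.85 over all genes. Without female 3 that difference was 0.50 (SE 0.29, limma adjusted p = 0.1), and the call was also lost without female 4, male 4, male 7 or male 9, with differences of 1.13 to 1.18.

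Female 3, which had the highest female SLC9A3, stood lowest of the 14 libraries in its proximal tubule level, a mean log2(signal + 1) of 2.73 over 20 genes, and the highest thick limb level of the females, 7.52 over 6 genes. The part of the thick limb in the SLC9A3 values was not tested.

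CA4 (gene27438, NC_018167.2, 43245726 to 43255529, minus strand) encodes the anhydrase anchored to the outer face of the apical membrane, and it is also found on capillary endothelium. Its signal was 51.7, 43.2, 40.5, 53.8, 58.8 and 50.7 in females 3 to 8. In males 1 to 5 it was 47.2, 59.5, 67.2, 72.3 and 55.3, and in males 7 to 9 it was 110.4, 86.5 and 80.4. Females varied little, with 6 libraries inside a 1.45-fold range, and male 1 and male 5 lay within the female range. The means were 49.8 ± 6.80 (SD, n = 6) and 72.4 ± 20.1 (SD, n = 8), and CA4 fell by 0.50 on the log2 scale (SE 0.17, limma adjusted p = 0.0306), close to the median shift of all genes. The call was lost when female 4, female 5, female 8, male 7, male 8 or male 9 was left out, with a limma adjusted p of at most 0.0743, and with median scaling, where the difference was -0.04 (limma adjusted p = 0.858). With all 17 libraries it was -1.18 (limma adjusted p = 0.224). Relative to the proximal tubule list CA4 was higher in females by 1.70 (SE 0.57, limma adjusted p = 0.00617), by 1.11 without female 3 (SE 0.28, limma adjusted p = 0.000874), and called whichever of the 14 libraries was left out. In this setting the median difference of all genes was larger, 1.85, and 1.22 without female 3. Of 4 endothelial genes measured in both sexes 0 were called, beside 38.6% of all genes.

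CA2 (gene15542, NC_018159.2, 81596304 to 81614711, plus strand) encodes the main cytosolic anhydrase, which is abundant in proximal tubule, intercalated cells and red blood cells. Its signal was 59.7, 54.1, 34.3, 71.0, 90.6 and 60.9 in females 3 to 8. In males 1 to 5 it was 351.4, 89.1, 157.6, 204.2 and 266.5, and in males 7 to 9 it was 258.4, 200.5 and 258.4. Male 2 overlapped with the highest female, female 7, and the other 7 males lay above all females. The means were 61.8 ± 18.6 (SD, n = 6) and 223 ± 79.3 (SD, n = 8), a ratio of male to female mean of 3.61. CA2 fell by 1.80 on the log2 scale (SE 0.27, limma adjusted p = 0.000178). It remained called when any 1 of the 14 libraries was left out, with differences from -1.97 to -1.64, and with median scaling, where the difference was -1.34 (limma adjusted p = 0.00132). With all 17 libraries it was -2.01 (limma adjusted p = 0.00509). Relative to the proximal tubule list the difference was 0.40 (SE 0.54, limma adjusted p = 0.468), and without female 3 it was -0.18 (SE 0.30, limma adjusted p = 0.569), the only negative value among the fits that left out 1 library.

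Of the 10 genes of the intercalated cell list, 0 were called, beside 38.6% of all genes, 36.3% lower in females. The mean level of the list was 4.31 to 5.64 in females and 4.74 to 6.19 in males. Of 3 red cell genes measured in both sexes, HBA1 and ALAS2 fell, by 1.41 and 1.19 on the log2 scale (limma adjusted p of 0.0422 and 0.0333), and HBB did not pass, with a difference of -1.31. The red cell genes summed to between 40.9 and 355.8 in females and to between 69.2 and 784.0 in males. The part of red cells in the CA2 result was not tested.

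CA12 (gene13080, NC_018158.2, 37690393 to 37750289, minus strand) encodes a transmembrane anhydrase with its active site outside the cell. Its signal was 29.5, 51.0, 167.1, 125.4, 241.7 and 162.2 in females 3 to 8. In males 1 to 5 it was 88.4, 233.8, 201.1, 573.2 and 254.4, and in males 7 to 9 it was 453.1, 306.6 and 337.7. CA12 was the most spread of the 5 tested genes on the log scale in males and in females, with an 8.21-fold range among females and a 6.48-fold range among males, and the groups overlapped. The means were 129 ± 79.1 (SD, n = 6) and 306 ± 151 (SD, n = 8), and CA12 fell by 1.37 on the log2 scale (SE 0.46, limma adjusted p = 0.0263). The call was lost without female 3, female 4 or male 7, with limma adjusted p of 0.0524, 0.0643 and 0.0527. It was also lost with median scaling, where the difference was -0.91 (limma adjusted p = 0.168), and with all 17 libraries, where it was -1.91 (limma adjusted p = 0.152). Relative to the proximal tubule list the difference was 0.83 (SE 0.53, limma adjusted p = 0.127). Without female 3 it was 0.60 (SE 0.28, limma adjusted p = 0.0453), and it was called in no other fit that left out 1 library.

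SLC4A4 (gene9965, NC_018156.2, 69762286 to 70104650, minus strand) encodes the sodium bicarbonate cotransporter NBCe1, the basolateral exit for bicarbonate in the proximal tubule. Its signal was 5.51, 8.83, 13.7, 31.2, 30.8 and 12.7 in females 3 to 8. In males 1 to 5 it was 55.4, 88.6, 58.6, 89.5 and 94.9, and in males 7 to 9 it was 136.8, 83.8 and 124.5. The highest female, female 6, lay below the lowest male, male 1, so the groups did not overlap, which was so in the same direction for 11.9% of all genes tested. Within the females the values spread 5.66-fold, and within the males 2.47-fold.

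The means of SLC4A4 were 17.1 ± 11.1 (SD, n = 6) and 91.5 ± 28.3 (SD, n = 8), a ratio of male to female mean of 5.35. SLC4A4 fell by 2.53 on the log2 scale (SE 0.33, limma adjusted p = 9.08e-05). It remained called when any 1 of the 14 libraries was left out, with differences from -2.74 to -2.28, with median scaling (-2.08, limma adjusted p = 0.00103) and with all 17 libraries (-2.44, limma adjusted p = 0.0131). Relative to the proximal tubule list the difference was -0.33 (SE 0.58, limma adjusted p = 0.579). Without female 3 it was -0.66 (SE 0.28, limma adjusted p = 0.0303), and it was called in no other fit that left out 1 library.

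Proximal tubule genes fell with the bicarbonate genes. Of the 20 genes of the list, none of them a bicarbonate gene, 18 were called lower in females and 2 were not called, and their median log2 difference was -2.05, beside -0.35 over all genes. The list summed to a signal of 314 to 5458 in females, and of 4831 to 11188 in males. SLC5A2, the apical glucose carrier of the early proximal tubule, was listed at 0 in at least 1 female, and the other 19 genes were above 0 in every one of the 14 libraries. In bulk tissue, fewer proximal tubule cells and less RNA per cell cannot be told apart. The difference of SLC4A4 was larger than that of 14 of the 20 genes, that of CA2 larger than 6, that of CA12 larger than 2, that of SLC9A3 larger than 1 and that of CA4 larger than 0. How far the share of proximal tubule accounts for these differences was not tested.

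**Figure D2:**
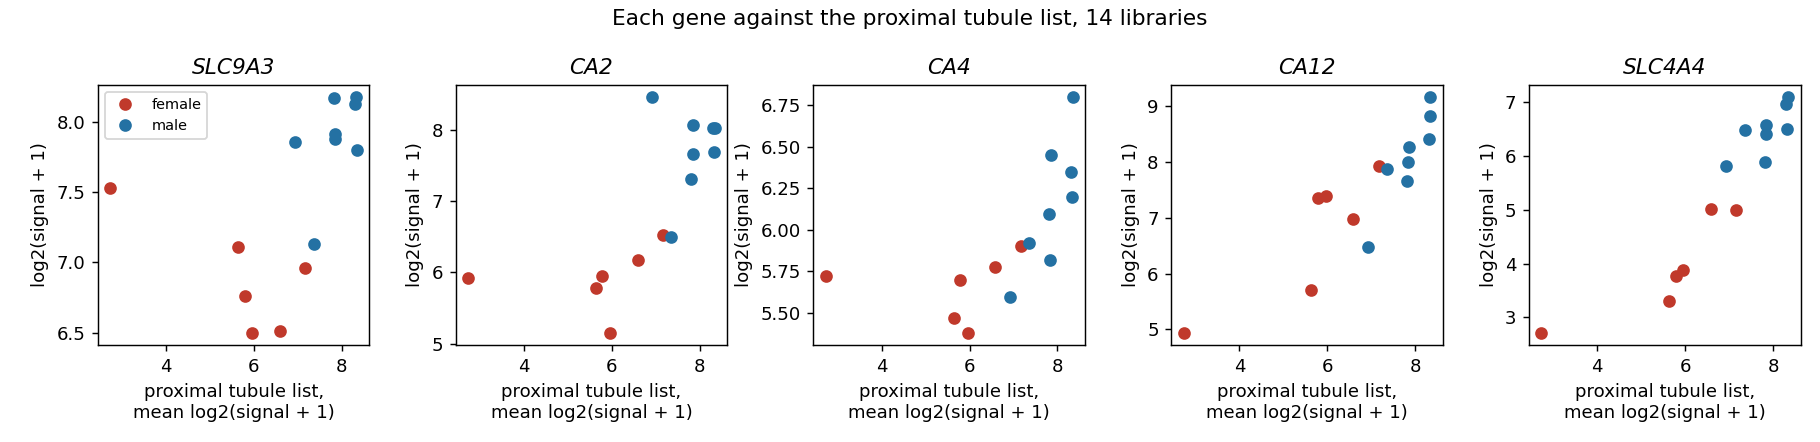
Log2(signal + 1) of the 5 tested genes (vertical axes, each with its own range) against the mean log2(signal + 1) of 20 proximal tubule genes (horizontal axes), 1 point per library for 6 females (red) and 8 males (blue). Female 3, at 2.73 on the horizontal axis, had the lowest SLC4A4 and CA12 of the 14 libraries and the highest SLC9A3 of the females.

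The ratios between the 5 genes varied. The female ratios of SLC4A4 to SLC9A3 signal lay between 0.0300 and 0.345 around a median of 0.136, and the male ratios between 0.204 and 0.636 around a median of 0.377, so the groups overlapped. With each library expressed relative to its SLC9A3 level, a setting chosen after the values were seen, SLC4A4 was lower in females, at -1.54 on the log2 scale (SE 0.42, limma adjusted p = 0.0054) and CA2 by -0.81 (SE 0.25, limma adjusted p = 0.0121). The same differences did not pass for CA12, at -0.38 (SE 0.52, limma adjusted p = 0.54), or CA4, at 0.49 (SE 0.22, limma adjusted p = 0.0671). The ratio of CA4 to SLC9A3 had a median of 0.463 in females and 0.269 in males. In this setting 56.4% of all genes were called, 1.54% lower in females and the others higher, and the median log2 difference of all genes was 0.64. SLC4A4 and CA2 were called whichever of the 14 libraries was left out, with differences of -1.83 to -1.17 and -0.94 to -0.68. Without female 3 CA12 turned to 0.10 and CA4 was called higher, at 0.60 (limma adjusted p = 0.0212), beside 63.5% of all genes called and 62.2% higher. CA4 was also called without male 2 or male 7.

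**Figure D3:**
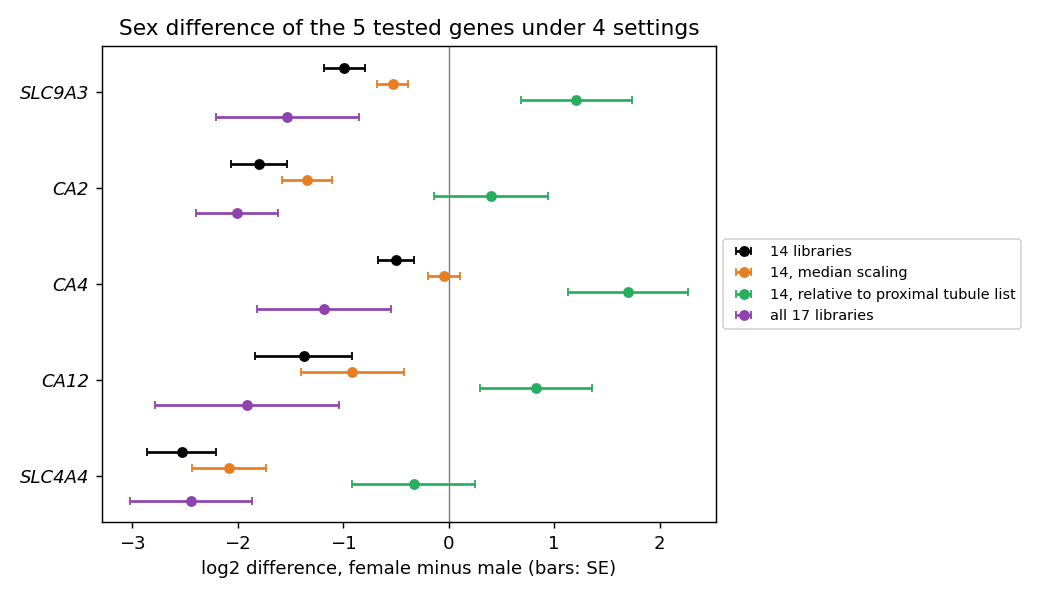
Log2 difference, female minus male, of the 5 tested genes in 4 settings (points, with SE bars): the 14 libraries, the same with median scaling, the same relative to the proximal tubule list, and all 17 libraries. All 5 lay below 0 in the 14 libraries, CA4 at -0.04 with median scaling, and SLC9A3, CA2, CA4 and CA12 above 0 relative to the proximal tubule list, where CA2 lay at -0.18 without female 3.

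The male libraries fall into 2 name series, of which series A gave 5 and series B 3 of the 8 males. Between them 0 of the 5 genes and 0% of all genes were called with limma, where CA4 and SLC4A4 and 682 of all genes had an unadjusted p under 0.05. CA4 differed by 0.61 on the log2 scale, series B minus series A (SE 0.19, limma adjusted p = 0.635) and SLC4A4 by 0.57 (SE 0.24, limma adjusted p = 0.679). Against series A alone, SLC4A4, CA2 and SLC9A3 were called lower in females, with differences of -2.31, -1.69 and -0.95, against 20.5% of all genes and 19.8% lower in females. Against series B alone all 5 were called, with differences of -2.89 for SLC4A4, -1.98 for CA2, -1.79 for CA12, -1.05 for SLC9A3 and -0.88 for CA4, against 32.0% of all genes and 30.8% lower in females. Male 5, the oldest of the 8 males at 13, had values inside the range of the other males for all 5 genes.

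CA3 (gene15541, NC_018159.2, 81570637 to 81581368, plus strand) encodes a cytosolic anhydrase of low catalytic activity that is abundant in slow skeletal muscle fibres and in fat. It was listed at 0 in 9 of the 14 libraries, 5 females and 4 males, and its highest signal there was 0.372, in male 2. In the muscle-rich libraries its signal was 4017 in female 1, 3063 in female 2 and 2625 in male 6. These libraries were set apart by measured muscle genes, so no test was made.

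CA14 (gene1818, NC_018152.2, 120526549 to 120536813, plus strand) encodes a transmembrane anhydrase with its active site outside the cell, described in kidney tubules of rodents and in muscle. It was listed at 0 in 2 females and was at most 0.754, in male 8, in the 14 libraries. In the muscle-rich libraries its signal was 13.7 in female 1, 35.8 in female 2 and 50.6 in male 6, so that the order of the 3 libraries was the reverse of that for CA3. All 14 libraries lay below the lowest of the 3.

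CA2 was low in these libraries for their sex, with a signal of 16.6 in female 1, 19.9 in female 2 and 57.5 in male 6. These values were 27.5%, 33.0% and 24.9% of the median of the other libraries of the same sex. Such shares are not adjusted for summed signal over the shared transcripts. That sum was 529036 to 659319 in the muscle-rich libraries and at most 433540 in the others. For SLC9A3 the same shares were 5.32%, 8.46% and 7.92%, for CA12 3.78%, 2.63% and 3.45%, and for CA4 3.23%, 6.77% and 16.0%. SLC4A4 stood at 37.6% and 28.7% of the low female median in females 1 and 2 and at 4.29% of the male median in male 6, with signal of 4.97, 3.79 and 3.82. CA3 and CA2 are neighbours on the same strand, with 14935 bases between them, and of the pair only CA3 was high in the muscle-rich libraries. The CA2 signal of male 6 lay above those of female 4 and female 5, and those of females 1 and 2 lay below all other libraries.

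**Figure D4:**
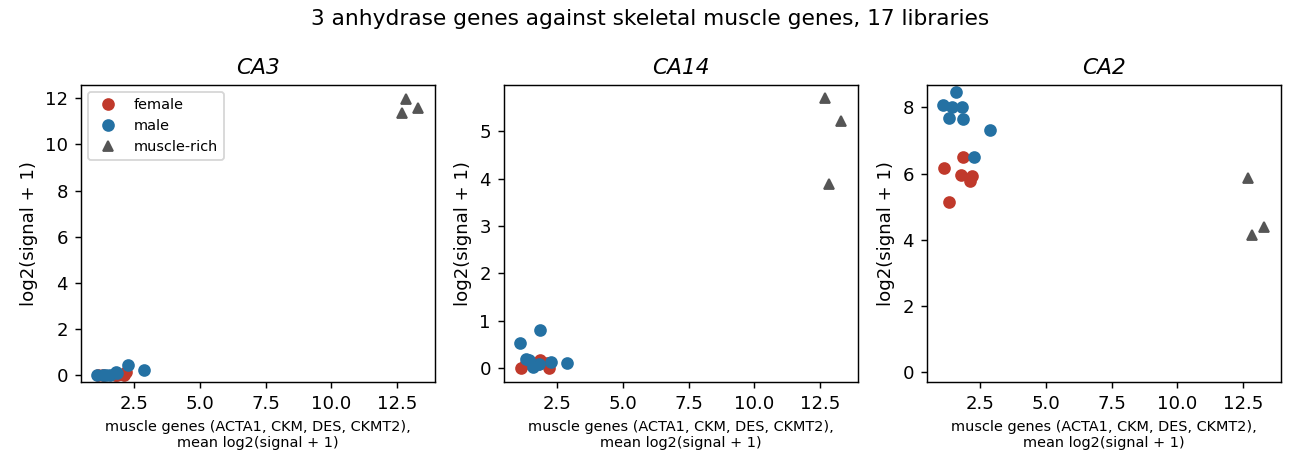
Log2(signal + 1) of CA3, CA14 and CA2 (vertical axes) against the mean log2(signal + 1) of ACTA1, CKM, DES and CKMT2 (horizontal axes) in the 17 libraries. The 3 muscle-rich libraries (triangles) were highest in CA3 and CA14, and in CA2 each lay below the other libraries of its sex.

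Genes of slow and fast fibres could be compared in the females alone, because most of them were held in the table of females alone. Mean log2(signal + 1) of 6 slow-fibre genes was 11.4 in female 1 and 12.0 in female 2 and at most 2.29 in the other females. For 6 fast-fibre genes it was 12.9 and 13.3, and at most 0.624 in the others. Female 1 had more CA3 than female 2, but less of the slow-fibre list. Fat cell genes were also high in the muscle-rich libraries: the mean level of ADIPOQ, CIDEC and FABP4 was 5.62 to 6.28 there and at most 0.963 in the 14 libraries. The shares of muscle and fat in the CA3 signal were not tested.

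The other genes of acid-base transport were taken from lists of 74 genes, of which 55 were in both tables and 54 were tested. Lower in females were 26, higher was 1, and 27 were not called, a share called of 50.0% beside 38.6% of all genes. Their median log2 difference was -0.50, beside -0.35. With median scaling 15 of the 54 were called, 12 lower and 3 higher, beside 29.7% of all genes. With all 17 libraries 7 were called, all lower, beside 13.6% of all genes. The direction reversed relative to the proximal tubule list, with 40 called, all higher in females, beside 83.4% of all genes. It also reversed relative to SLC9A3, with 20 called, all higher, beside 56.4% of all genes. Without female 3 the counts relative to the list and to SLC9A3 were 39 and 28, again all higher, beside 79.7% and 63.5% of all genes.

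**Figure D5:**
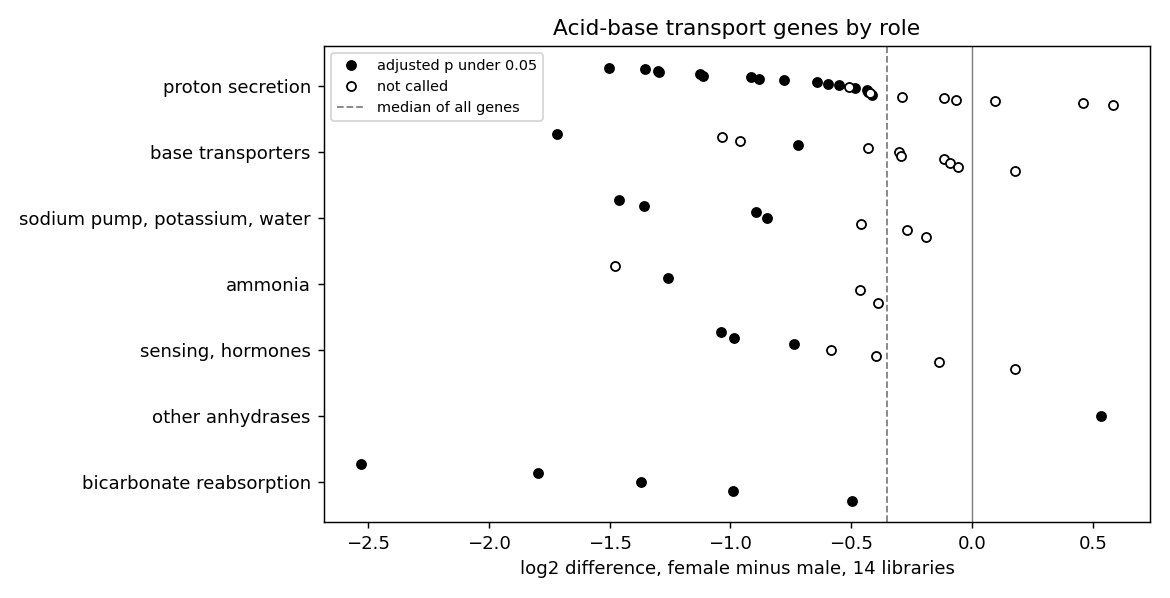
Log2 difference, female minus male, in the 14 libraries for tested genes of acid-base transport grouped by role, 1 point per gene, with the 5 tested bicarbonate reabsorption genes in the bottom row. Filled points were called at a limma adjusted p under 0.05, and the dashed line is the median of all genes, -0.35. SLC4A4, at -2.53, had the largest fall shown, and CA11 is the only filled point above 0.

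Of 24 genes of proton secretion, 16 were called lower in females, beside 36.3% of all genes. SLC9A3R1, which encodes the scaffold NHERF1 that binds NHE3, had 76.8 ± 25.6 (SD, n = 6) for the females and 196 ± 59.1 (SD, n = 8) in males and fell by 1.36 on the log2 scale (limma adjusted p = 0.00051). Among the 16 genes of the vacuolar proton pump and its accessory proteins, 10 were called lower and 6 were not called, with a median of -0.47. The catalytic subunit gene ATP6V1A had 30.2 ± 8.02 and 76.7 ± 25.8 and fell by 1.30 (limma adjusted p = 0.000291), ATP6V1C1 fell by 1.12 (limma adjusted p = 0.000215) and ATP6V1G1 by 0.91 (limma adjusted p = 0.000211). ATP6V1B1 and ATP6V0A4, subunits typical of intercalated cells, had differences of -0.07 and -0.42 and were not called.

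Of 11 base transporters, 2 were called lower, SLC26A1 and SLC26A11, beside 36.3% of all genes. SLC26A1, a basolateral anion exchanger of the proximal tubule that carries sulfate, oxalate and bicarbonate, had 13.9 ± 6.14 (SD, n = 6) for the females and 46.9 ± 15.9 (SD, n = 8) in males and fell by 1.72 on the log2 scale (limma adjusted p = 0.000421). SLC26A11 fell by 0.72 (limma adjusted p = 0.00539), with 2 of its 3 transcripts in both tables. SLC4A1, the chloride-bicarbonate exchanger of type A intercalated cells and red cells, had 208 ± 96.1 and 182 ± 86.7, a difference of 0.18 (limma adjusted p = 0.681). SLC4A2 had a difference of -0.30 and SLC4A9 of -0.06, and neither was called.

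Of 7 genes for the sodium pump, potassium channels and water, 4 were called lower, beside 36.3% of all genes: KCNJ15, KCNJ16, ATP1B1 and AQP1. KCNJ15 and KCNJ16, subunits of basolateral potassium channels, fell by 1.46 and 1.36 on the log2 scale (limma adjusted p of 0.000156 and 0.000343). ATP1B1, a subunit of the sodium pump, fell by 0.89 (limma adjusted p = 0.00351), and AQP1, the water channel of the proximal tubule, by 0.85 (limma adjusted p = 0.0197).

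PCK1, which encodes an enzyme of gluconeogenesis that is linked to ammonia production in the proximal tubule, had a difference of -1.48 and was not called (limma adjusted p = 0.0607). Of 7 genes of sensing and hormones, PTK2B, PTH1R and EDNRB were called lower, with differences of -1.04, -0.98 and -0.74, beside 36.3% of all genes called lower. PTH1R encodes the receptor of parathyroid hormone, a hormone that lowers NHE3 activity. Of the other anhydrase genes CA11, which encodes a related protein without anhydrase activity, was called, with 13.3 ± 2.56 (SD, n = 6) against 8.81 ± 1.30 (SD, n = 8), higher by 0.53 on the log2 scale (limma adjusted p = 0.00942).

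The pattern across libraries within the sexes differed between the 5 genes. After centring on each sex mean, the genes most like SLC4A4 over the 14 libraries, among the 4702 genes whose mean was no lower than the median gene, were GGACT (Pearson r = 0.948), GOLGA4 (0.937) and LOC101022962 (0.935). Those most like CA12 were TMEM52B (0.964), ADM (0.961) and SLC5A2 (0.945). Those most like SLC9A3 were GGA1 (0.948), INTS1 (0.944) and ABHD16A (0.943), and those most like CA2 were STX3 (0.886), CD59 (0.881) and KBTBD11 (0.849). Those most like CA4 were CRELD1 (0.919), DNAJB11 (0.890) and ATP6V1F (0.840). By the same measure SLC4A4 was most like CA12 among the 5 (0.777), with 0.81 in females and 0.75 in males. The value of SLC4A4 with SLC9A3 was -0.43, with -0.67 in females and -0.08 in males. These are descriptions over 14 libraries, chosen as the highest of many, and libraries share their tissue makeup and depth across genes.

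The authors' deposited tables give each transcript a co-expression module colour, set for each sex separately, so a colour does not name the same module in both tables. In the authors' deposited table of females SLC4A4, CA2 and CA12 shared the colour pink with 1064 transcripts in all, SLC9A3 and CA4 shared grey60 with 1541, and CA3 and CA14 shared blue with 11110. For males, the authors' deposited table, as far as it was held here, gave one colour to several members: SLC4A4, CA4 and CA12 shared blue with 3027 named transcripts, SLC9A3 was black with 2382 and CA2 purple with 2121. CA3 and CA14 shared turquoise, with 4878 transcripts in that part. CA4 was thus grouped with SLC9A3 in females and with SLC4A4 and CA12 in males, and CA2 with SLC4A4 and CA12 in females alone. Whether these groupings differ between the sexes beyond chance was not tested.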

How the data were processed

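RNA of 17 kidney cortex biopsies was sequenced from stranded mRNA libraries, 1 per animal. Females and males each have a table deposited by the authors, in which every transcript has a signal for every library, with 1 as the lowest value. The submitters' processing notes name Partek. Coordinates were copied from the tables; for aligner, scaling and build nothing is given in the sources used here. Of the table of males, complete rows for 17119 transcripts were held, all also in the female table; 9525 female transcripts were not used in comparisons. The 7 shared rows that name no gene (0.754% to 3.21% of shared signal) were left out.

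The offset of 1 was subtracted and transcripts were summed per gene (9818 genes). The 9414 genes with a signal of 1 or more in 8 or more of 17 libraries were tested on log2(signal + 1) with limma 3.58.1 (R 4.3.3), using its variance trend, and p-values were adjusted by Benjamini-Hochberg. The procedure was also run on simulated data with independent genes and few changes, balanced in direction. The real data differ in each of these respects, so that run does not bear on the calls made here. Alternatives changed libraries, scaling, pseudocount (0.1, 5), filter (none, 10), trend, age and male series. Each member had 1 transcript, so shares of transcripts could not be tested. Nothing beyond separate animals says how samples were processed, and p-values measure the spread between these animals.

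The members and lists were chosen with earlier results of these data known. Named genes are all members, the called acid-base genes with the smallest adjusted p (at most 8 in each direction, and every gene of a count of 5 or fewer), and the 3 genes most like each member. Some genes of the acid-base lists are not reported here by name. Uncalled genes named beside them were picked for their role after values were seen. Lists of podocyte, thick limb, distal convoluted, principal, immune and injury genes had 1 of 3, 2 of 6, 2 of 4, 0 of 7, 1 of 4 and 0 of 5 tested genes called, all lower in females. Over all genes 36.3% were called lower.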

Additional observations from a re-analysis of the deposited data

Results flagged for a closer look

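Among 14 sets of values (7 genes in 6 females and in 8 males), 2 held a library far from the rest. For normally distributed values chance gives about 5% of sets. SLC9A3 in male 2 was 139.2, and the next male was at 222.3. CA3 in female 3 was 0.112, while the other 5 females were listed at 0. Any single value above 0 would stand apart in such a set, so the 5% does not apply to it.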

How the results depend on the processing

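All 5 tested members were called in the 14 libraries, and all 5 also with either pseudocount, either filter and no trend. The count was 2 with all 17 libraries, 3 with median scaling, 3 with upper quartile scaling, 2 relative to the proximal tubule list, 0 with age as a term, 3 against series A, and 3 to 5 when 1 library was left out. In settings added after seeing the data it was 2 of 4 relative to SLC9A3, 2 with all 17 libraries and median scaling, and 0 with all 17 and age. By transcript 5 were called, 2 with all 17 libraries and 3 to 5 leaving out 1. Over all genes the 3631 calls became 1276 with all 17 libraries, 7851 relative to the proximal tubule list, 2126 with the filter of 10 (fewer genes tested), 1 with age as a term, 1931 against series A, 377 with all 17 and median scaling, 1 with all 17 and age, and 3087 to 4010 leaving out 1 library. They became 2793 with median scaling, 2774 with upper quartile scaling and 5310 relative to SLC9A3. The 27 other acid-base genes became 7 with all 17 libraries, 15 and 14 with median and upper quartile scaling, 0 with age, 16 against series A, 3 with all 17 and median scaling, 0 with all 17 and age, and 21 to 29 leaving out 1. Called lower in 26 of 27 cases in the 14 libraries, they reversed relative to the proximal tubule list (40 called, all higher in females) and relative to SLC9A3 (20, all higher).

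Directions turned relative to the proximal tubule list for SLC9A3 (1.21), CA2 (0.40), CA4 (1.70) and CA12 (0.83), and relative to SLC9A3 for CA4 (0.49). They also turned with age as a term for CA4 (0.15, SE 0.49, limma adjusted p = 0.972). With all 17 libraries and age they turned for SLC9A3 (1.84), CA4 (2.09), CA12 (3.19) and SLC4A4 (0.70), where 0 of the 5 members had an unadjusted limma p under 0.05. Ages of the sexes do not overlap, so signs in the fits with age are poorly determined. Leaving out 1 library without rescaling gave -1.11 to -0.91 for SLC9A3, -1.97 to -1.64 for CA2, -0.58 to -0.40 for CA4 and -1.61 to -1.01 for CA12. Relative to the proximal tubule list, leaving out 1 library, fits added after seeing the data, gave 0.50 to 1.502 for SLC9A3, -0.18 to 0.64 for CA2, 1.11 to 1.96 for CA4, 0.60 to 1.03 for CA12 and -0.66 to -0.20 for SLC4A4. It gave 1 to 3 members, 6940 to 8515 genes and 37 to 46 acid-base genes called. The lowest value of each of the first 4 and of SLC4A4 was that without female 3. Relative to SLC9A3 the same fits gave -0.61 to 0.10 for CA12, above 0 only without female 3, and 0.39 to 0.60 for CA4, with 2 to 3 members, 4628 to 5974 genes and 15 to 28 acid-base genes called. Scaling on the proximal tubule list subtracts its mean log2 difference, -2.20 in the 14 libraries, from that of every gene, so genes that fell by less turn positive. Scaling on SLC9A3 subtracts its difference of -0.99 in the same way. Other causes of these changes were not tested. The lowest CA3 signal of the muscle-rich libraries, 2625, did not change by transcript. No paired analysis was possible because each animal belongs to 1 sex and its number is an order of listing. Read depth is unknown, so low values such as those of CA3 and CA14 carry no interval.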
